A study of Drosophila melanogaster with 2 samples.

Results

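The genes described here are 29 protein-coding genes for subunits of RNA polymerase I, II and III in Drosophila melanogaster, of 13968 protein-coding genes on the chromosome arms. They were chosen by symbol (Polr1, Polr2 or Polr3 at its start) in the Ensembl BDGP6.54 annotation, and are 7 genes for polymerase I, 13 for polymerase II and 9 for polymerase III. Whole embryos of the strain rib-GFP, collected at 0 to 24 h, were used for ChIP-seq (sequencing of DNA precipitated with a protein). The strain has an insertion targeting rib and makes a rib-eGFP fusion, which an anti-GFP antibody recovered. The antibody label names rib itself. There was 1 group of 2 biological replicates, with no other genotype or treatment to set beside it, and embryos of that age span mix all tissues and most of embryogenesis. The lists hold no read counts, so sequencing depth is unknown. A gene is called bound below when a summit (the highest point of a peak) lay within 500 bp of any of its transcription start sites (TSSs). Summits are those of the series' 4606 peaks that passed a limit on the irreproducible discovery rate (IDR), a measure of how well replicates rank the same region. The signal of a peak is the authors' value from their peak caller, on a scale that is not stated, and in the series list it is a single value for both replicates. All positions are on dm6, counted from 1.

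RNA polymerase I transcribes the large ribosomal RNA precursor, polymerase II messenger RNAs, and polymerase III transfer RNAs and 5S ribosomal RNA. Each is built around a pair of large catalytic subunits and an alpha-like pair on which the enzyme assembles. Some small subunits are common to all of them, and others form a stalk or help to start, proofread or end transcription. The gene rib (ribbon) encodes a nuclear BTB-domain protein that embryos need for the shape of the trachea and salivary glands. These subunit genes are expressed in nearly every cell.

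The protein was recovered at the starts of 6 of the 29 subunit genes, or 20.7%, where 18.2% of all protein-coding genes were bound. The bound genes were Polr2B, Polr1D, Polr2F, Polr2H, Polr2J and Polr3E. By symbol these were 1 of 7 polymerase I genes, 4 of 13 polymerase II genes and 1 of 9 polymerase III genes. Of the 7 genes whose products are shared between polymerases (Polr1C, Polr1D, Polr2E, Polr2F, Polr2H, Polr2K and Polr2L), 3 were bound. The groups are small and no test was made between them. With 6 bound genes the share lay near the background, and the values that follow describe the single genes.

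The sequences at the series summits, or within 50 bp of them, are shown. Fragments of 200 to 800 bp do not place the protein at single bases. Some summits of the single replicates, at Polr1D, Polr2F, Polr2H and Polr2J, lay outside the bases shown. Of 6 promoter words searched within 50 bp of each summit, described further on, only the letters TATAAA were found, at Polr2H and Polr2J. No bound subunit gene had TATAAA within 50 bp of its canonical TSS. The sequences are from RefSeq's copy of the Release 6 assembly and are written 5′ to 3′ on the strand of the subunit gene. Capitals mark the 11 bases centred on the summit, except at Polr1D and Polr2F, where they mark a run of 12 bases that both hold, in opposite orientation. At Polr1D, Polr2F and Polr2H the summit lies in an untranslated region of an annotated transcript and only 30 bases are shown. Those of Polr2F end before its summit, which is at chr3R:5371737, and do not hold it.
Polr2B, chr3R:14125684-14125784, plus strand: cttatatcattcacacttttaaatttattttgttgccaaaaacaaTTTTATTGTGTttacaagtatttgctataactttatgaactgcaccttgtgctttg
Polr2J, chr2L:17410481-17410581, minus strand: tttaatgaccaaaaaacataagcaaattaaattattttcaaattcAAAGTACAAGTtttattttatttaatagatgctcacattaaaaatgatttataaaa
Polr3E, chr3L:21031535-21031635, plus strand: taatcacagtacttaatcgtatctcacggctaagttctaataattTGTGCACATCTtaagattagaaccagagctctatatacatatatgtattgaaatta
Polr1D, chr2L:19135156-19135185, minus strand: tacatacacGAAAAGTGATTAttacaacac
Polr2F, chr3R:5371694-5371723, plus strand: ttcgataagTAATCACTTTTCcatttgcca
Polr2H, chr3L:21728781-21728810, plus strand: cagtatcactGCAATATTTATtgaaatttc

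Of the catalytic subunits only Polr2B, the second largest of polymerase II, was bound. The peak at Polr2B (FBgn0262955) spanned chr3R:14125705-14125817 and had a signal of 217, the highest among the 29 genes, and ranked 354 in the series list. Its summit was intergenic, 57 bp before the TSS. Replicate 1 had a signal of 98.5 there and replicate 2 a signal of 107, a ratio of 1.08 that lay at percentile 83.5 of the ratios over the series peaks (median 0.715). The peak was 113 bp wide, where the other 5 were each 380 bp. Polr2A, the largest subunit of polymerase II with the repeated tail that is phosphorylated during transcription, had no summit within 500 bp, nor had Polr1A and Polr1B or Polr3A and Polr3B, which form the catalytic centres of polymerases I and III.

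In both alpha-like pairs 1 gene of the pair was bound. Polr1D (FBgn0086447), which encodes the smaller alpha-like subunit of polymerases I and III, had a peak at chr2L:19134972-19135351 with a signal of 179. The summit was 71 bp downstream of the outer of its 2 TSSs, in the 5′ UTR and in an intron of brat, a gene on the other strand. It was the only bound member with its summit downstream of the start. Replicate 1 gave 109.8 and replicate 2 gave 61.2, the lowest ratio of replicate 2 to replicate 1 among the 6 genes (0.558). Its partner Polr1C was not bound. Polr2J (FBgn0032634), the smaller alpha-like subunit of polymerase II, had an intergenic peak at chr2L:17410341-17410720 with a signal of 146, its summit 125 bp upstream. Replicate 1 gave 91.3 there and replicate 2 gave 63.7. Its partner Polr2C was not bound, although the nearest summit was a strong one of 859, 2131 bp from its start and 96 bp from that of CenG1A, a regulator of Arf GTPases.

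Of the 5 subunits common to all the polymerases, Polr2F and Polr2H were bound. Polr2F (FBgn0003275) had a peak at chr3R:5371547-5371926 with a signal of 174. Its summit was 58 bp before the TSS, in the annotated 3′ UTRs of CG31542 and CG34277. Replicate 1 gave 104 and replicate 2 gave 74.6, with summits 3 bp apart. Polr2H (FBgn0037121) had a peak at chr3L:21728606-21728985 with a signal of 159.5. Its summit was 136 bp before the TSS, in the 5′ UTR of CG11247 on the other strand. Here replicate 2 (82.8) was slightly above replicate 1 (77.2). Polr2E, Polr2K and Polr2L were not bound, and the nearest summit to Polr2L was 66219 bp away, the farthest of all members.

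Of the genes with a Polr3 symbol the bound one was Polr3E, of the pair with Polr3D that acts in initiation and termination. The bound Polr1D, Polr2F and Polr2H also encode subunits of polymerase III. Polr3E (FBgn0028402) had a peak at chr3L:21031395-21031774 with a signal of 117, its summit 240 bp upstream, and 67.9 in replicate 1 and 60.2 in replicate 2. This was the weakest peak of the 6, and it lay between genes. Polr3C, Polr3F and Polr3G, the trimer that acts in promoter opening, and Polr3K, which is needed for RNA cleavage, were not bound. Over 7 pairs of directly partnered subunits (the large pairs, the alpha-like pairs, the stalk of polymerase II, and Polr3D with Polr3E), 4 had 1 bound gene, 3 had none and 0 had both. These pairs were drawn up after the values had been seen. Over all protein-coding genes 18.2% were bound, and 7 pairs are too few to be read against that share.

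**Figure D1:**
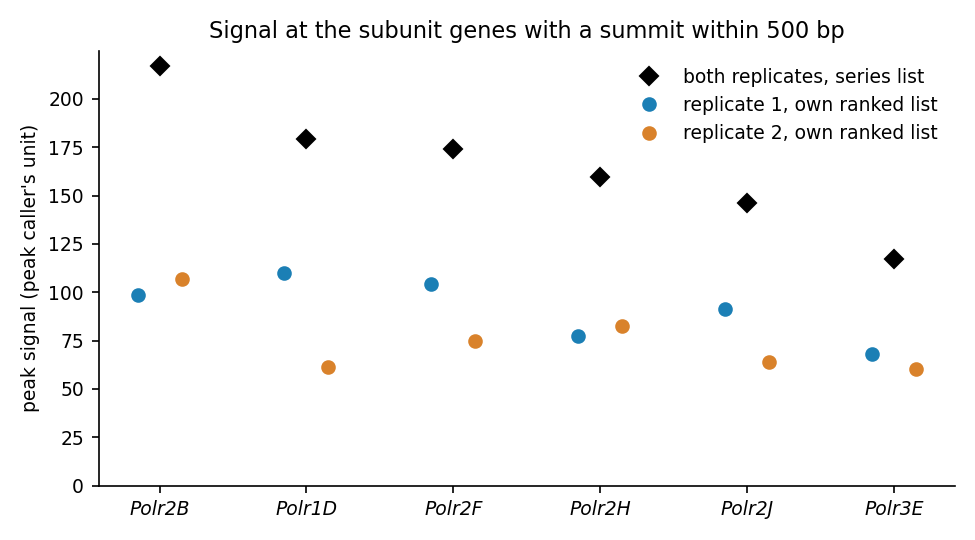
Peak signal (vertical axis, the peak caller's unit) at the 6 bound subunit genes, in order of the series signal; diamonds are the series list, blue and orange points the ranked lists of replicates 1 and 2. The series values fall from 217 at Polr2B to 117 at Polr3E, and replicate 1 is above replicate 2 at 4 of the 6 genes.

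The replicates gave summits near each other, though not at the same bases. Each of the 6 series peaks passed the threshold in both replicates alone and overlapped a region in the ranked list of both replicates. Overlap with a ranked region of both replicates was near general, at 4579 of the 4606 series peaks. The replicates' own lists past the threshold held 3082 and 2181 peaks. The share of series peaks that passed in both was not counted. The summits of the replicates were 3 to 69 bp apart, with a median of 11.0 bp. At Polr2B the summit of replicate 2 lay outside the series peak. Polr2J was the widest at 69 bp and Polr2B next at 39 bp. The ratio of replicate 2 to replicate 1 ran from 0.558 at Polr1D to 1.08 at Polr2B. Over 4579 series peaks found in both ranked lists the median ratio was 0.715, with quartiles at 0.534 and 0.954, so 4 members lay within the quartiles and Polr2B and Polr2H (1.07) above them. The median signal of the 6 was 167, against 106 for the highest peak at all 2547 bound genes, and all 6 were above that median. All 6 were also in the authors' conservative list, at the same signal.

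Most of these peaks lay near the start of a neighbouring gene on the opposite strand as well. At 4 of the 6 bound genes the summit was also within 500 bp of a TSS of such a neighbour. At 3 of them, all but Polr2B, the neighbour's TSS was the nearer. The summit of Polr2B was 186 bp from the TSS of 140up, against 57 bp from its own. That of Polr2H was 10 bp from a TSS of CG11247, that of Polr2J 110 bp from CG15141, and that of Polr3E 225 bp from CG10584. The lists do not tell to which of the paired genes such a summit belongs. Over all bound protein-coding genes, 45.7% had another gene's TSS within 500 bp of their summit and 21.8% had one that was nearer than their own.

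**Figure D2:**
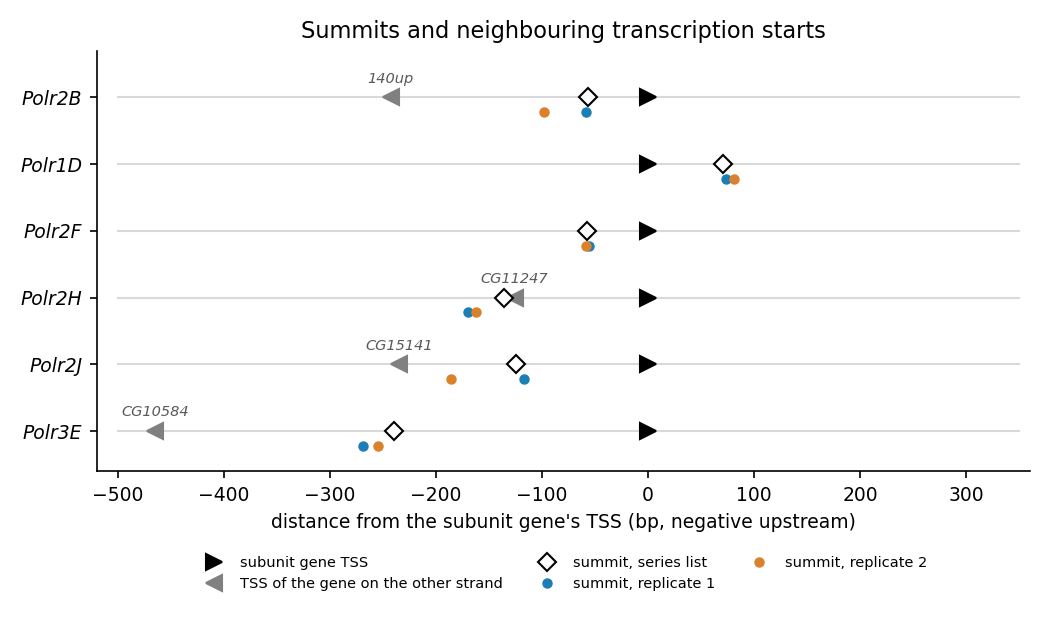
Position of each summit relative to the TSS of the subunit gene (horizontal axis, bp, negative upstream; black triangle at 0), with the nearest TSS of a neighbour on the other strand (grey triangle, named). Open diamonds are series summits, blue and orange points the summits of replicates 1 and 2. At Polr2H, Polr2J and Polr3E the series summit is nearer to the grey triangle than to the black one.

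Many of the subunit genes had such a neighbour. Of the 29, 18 (62.1%) had a TSS on the opposite strand up to 500 bp upstream of a start of their own, where 27.3% of all protein-coding genes had one. Among the 18, 5 were bound (27.8%), and over all genes with such a neighbour 31.8% were bound. Polr1D counts among the 5 through its internal start, which faces brat, and not through the start at its peak. Among the 11 without a neighbour 1 was bound, Polr2F (9.09%), and over all such genes 13.1% were bound. Within each kind of promoter the share of bound subunit genes was thus near that of other genes. This split was chosen after the values had been seen.

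By chromosome arm, the bound genes were 2 of 4 on 3L, 2 of 6 on 2L, 2 of 11 on 3R, 0 of 5 on 2R and 0 of 3 on X. Over all protein-coding genes the bound shares of these arms were 19.8%, 18.3%, 17.6%, 19.6% and 15.9%, and the members per arm are too few to be read against them. When each summit was given only to the gene of its nearest TSS, Polr1D, Polr2B and Polr2F were left, which is 3 of 29 against 14.6% of all genes. When the peak itself had to cover a TSS, 5 were left (background 13.2%), without Polr3E. A window of 200 bp kept the same 5 (background 14.5%), and one of 1000 bp added none to the 6 (background 21.6%). The canonical TSS alone gave the same 6 (background 15.8%), as did the conservative list (background 16.5%). The stronger 50% of the peaks held all 6 (background 11.5%). So did the list of replicate 1 alone (background 13.0%) and that of replicate 2 alone (background 10.7%). With all ranked regions of a score of 540 or more, an IDR of 0.05 or less, 9 were bound (background 27.2%), the 3 further genes being Polr2A, Polr2D and Polr3F.

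Below the threshold the ranked list still held regions at most of the other genes. The ranked list holds the regions before the threshold, 107505 on the arms, most of them weak. Of the 23 genes not bound, 21 had a ranked region within 500 bp, as had 8048 of the 11421 protein-coding genes not bound. The strongest at each had a median signal of 35.3 over the 23, with 0 for none. Over the 11421 that median was 26.7. Just outside the threshold stood Polr2D, a stalk subunit of polymerase II, with 69.1 at 197 bp upstream (score 762, where 830 stands for an IDR of 0.01). In its window the strongest regions of the replicates were 42.4 and 29.3. Polr3F followed with 64.3 (score 662; 42.6 and 12.9 in the replicates), Polr1A with 64.0 (score 536; 31.9 and 29.7) and Polr2A with 63.4 (39.2 and 19.7). The score of that region at Polr2A was only 92, and its call at a score of 540 rests on another region, with a signal of 61.9 and a score of 628, 19 bp downstream of the TSS. Of the subunit genes, the lowest inside the threshold was Polr3E with 117. The threshold is on the IDR and not on the signal, and Pbp95, a gene of another list below, passed with 3.24. Polr3A and Polr3I had no region within 500 bp in the series ranked list, and Polr3A had none in either replicate.

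**Figure D3:**
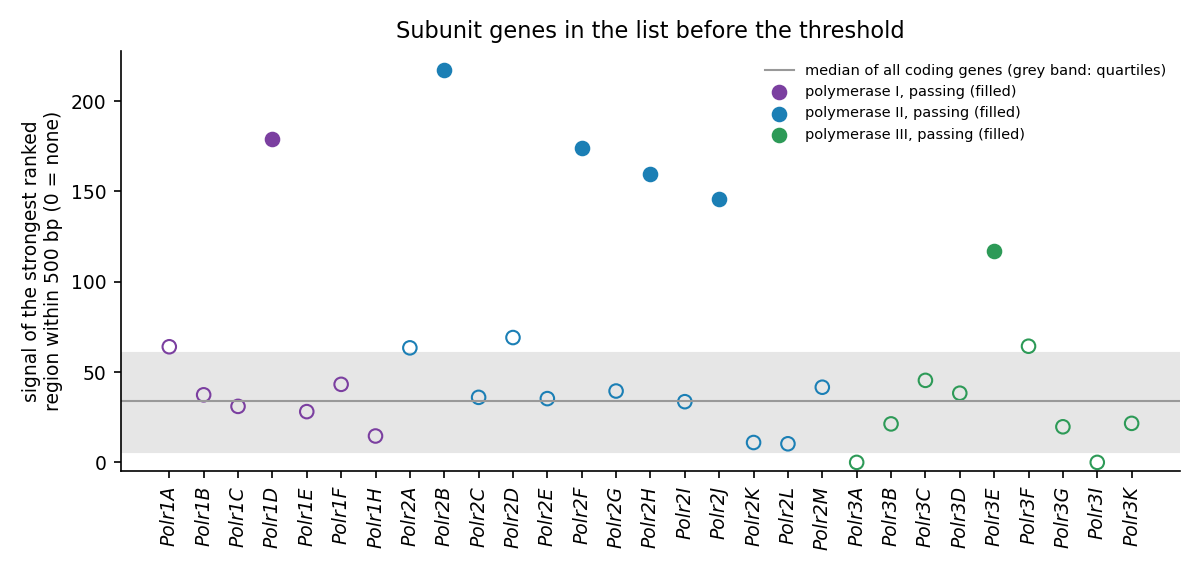
Signal of the strongest region within 500 bp of a TSS in the series list before the threshold (vertical axis, the peak caller's unit), for each of the 29 subunit genes; filled points are bound genes, the line and band are the median (34.1) and quartiles (5.64 and 60.4) of all protein-coding genes. The 6 bound genes stand at 117 or more and the others at 69.1 or less.

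Of the 23 genes not bound, 10 had a summit within 5000 bp and for 13 the nearest was farther. The nearest were those of Polr3G (1801 bp, signal 72.7), Polr2C (2131 bp), Polr1E (2667 bp, signal 91.3) and Polr2M (2762 bp, signal 93.0), the last named after Gdown1, a polymerase II-associated protein of mammals. Those of Polr3C, Polr3D, Polr2G, Polr1A, Polr3F and Polr2E were 3646, 3831, 4052, 4240, 4394 and 4891 bp away. Each of these 10 summits but that of Polr3D was within 200 bp of a start of another gene, and that of Polr3D was 406 bp from one. Polr1B, Polr1C, Polr1F, Polr1H, Polr2A, Polr2D, Polr2I, Polr2K, Polr2L, Polr3A, Polr3B, Polr3I and Polr3K made up the 13.

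Sequence words known from fly promoters were searched on both strands. They were DRE (TATCGATA), the core of the M1BP motif (GGTCACAC), an E-box (CACGTG), the E-box variant of the Ohler set (CAGCTG), the word of the GAGA factor (GAGAG) and the TATA box (TATAAA). In the 101 bp around the 6 summits only TATAAA was found, at Polr2H and Polr2J. At the 1967 summits within 500 bp of a start of any protein-coding gene, the shares were 3.91% for DRE, 1.93% for the M1BP core, 1.68% for CACGTG, 6.46% for CAGCTG, 17.1% for GAGAG and 12.7% for TATAAA. A window of 201 bp added TATAAA at Polr2F and Polr3E and no other word. The 12 bases shared by Polr1D and Polr2F, GAAAAGTGATTA, were in no other of the 1967 windows. They were picked from these same windows as the longest shared run. A run of that length seldom recurs, so nothing is drawn from its absence elsewhere. The next longest run shared by any of the 15 pairs of windows was 10 bases. The bases A and T made up 69.3% to 83.2% of the window at Polr2B, Polr2H, Polr2J and Polr3E, where the median over the 1967 summits was 55.4% and the upper quartile 65.3%. At Polr2F they made up 54.5% and at Polr1D 42.6%.

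The same words were counted around the starts. Within 50 bp of the canonical TSS, the E-box CACGTG was found at 6 of the 29 genes (20.7%), where 2.03% of all protein-coding genes had it. Of these, 5 were genes of polymerase I, 5 of its 7: Polr1A, Polr1B, Polr1C, Polr1E and Polr1H. In flies and mammals this word is the binding site of Myc with its partner Max, a driver of ribosome production. In those 5 genes it began 21 to 32 bp downstream of the TSS, and in the sixth, Polr3A, 47 bp upstream. The stretches around it are shown for Polr3A and for the genes of polymerase I other than Polr1A, with the E-box in capitals. Its place was alike in the genes of polymerase I and not in Polr3A. These E-boxes were counted after the values had been seen.
Polr1B, chr2L:404302-404331, plus strand: gattccaaacaaCACGTGcgaaggaaggca
Polr1C, chr2L:4969024-4969053, plus strand: tattgattccaaCACGTGcggttcaatttt
Polr1E, chr3R:18301690-18301719, minus strand: ttttgttttccaCACGTGcaacatttgaat
Polr1H, chr3R:21777799-21777828, minus strand: aatccgaaatagCACGTGcggtttttgtat
Polr3A, chrX:15762897-15762926, plus strand: tgttccgccacgCACGTGggtcacactgcc

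None of the 6 genes with this E-box was bound, while 23.0% of all 283 protein-coding genes with it were. DRE was at 4 subunit genes (Polr2D, Polr2L, Polr3A and Polr3B), also 0 of them bound, with 22.8% bound over all genes that hold it. The M1BP core was at 6 (Polr2G, Polr2I, Polr2L, Polr3A, Polr3E and Polr3K), of which Polr3E was bound, and 21.7% of all genes with it were bound. DRE was thus at 13.8% of the subunit genes and 5.28% of all, and the M1BP core at 20.7% and 5.41%. CAGCTG was at 3 subunit genes (Polr3C, Polr3E and Polr3G), of which Polr3E was bound. GAGAG was at Polr2H alone, which was bound. TATAAA was at Polr2C and Polr2K, neither bound. Over all genes with these words 25.8%, 22.9% and 9.38% were bound. CAGCTG was at 10.3% of the subunit genes and 9.33% of all, and GAGAG at 3.45% and 11.6%. TATAAA, at 6.90%, was also rarer than over all genes. The subunit genes per word are too few to be read against the bound shares. A word is a match of letters and not a measured site.

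Other parts of the transcription machinery had bound shares of 27.8% to 45.5%, against 20.7% of the subunit genes and 18.2% of all protein-coding genes. This order did not hold under every rule. Without replicate 1 the general factors of polymerase II were at 11.1% and the elongation factors at 18.8%. The subunit genes were still at 20.7% there, and all genes at 10.7%. In the stronger 50% of peaks the general factors were at 19.4%, against 11.5% of all genes. With the nearest TSS alone they were at 11.1%, against 10.3% of the subunit genes and 14.6% of all genes. Of the general factors of polymerase II, 10 of 36 were bound (27.8%), led by Ssl1 of the helicase-bearing factor TFIIH, with a signal of 607 and a summit 192 bp upstream. Taf5 (171) and Taf4 (130.1), parts of TFIID, which binds the core promoter, and TfIIB (144), which bridges the polymerase and the promoter, came next. The summits at Ssl1, Taf5 and TfIIB were nearer to another gene's start, so of these genes only Taf4 was left with the nearest TSS alone. Of the factors of polymerases I and III, 3 of 8 were bound. Bdp1 (281 at 122 bp upstream) and Brf (230.1 at 157 bp upstream) are parts of TFIIIB, which places polymerase III. Pbp95, the third, a protein of the complex that binds small nuclear RNA promoters, had a signal of 3.24 only. All 3 summits were nearer to another gene's start, so 0 of 8 were left when each summit went to its nearest TSS alone.

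Mediator, the complex that links activators to polymerase II, had 12 of 29 genes bound (41.4%), with MED27 (204), MED6 (197), MED30 (169.8) and MED7 (148) the strongest. Elongation and pausing factors had 7 of 16 bound (43.8%). Among these were TH1 (186), Nelf-E (158) and Nelf-A (151), all of the pausing complex NELF, and Ctr9 (107) of the Paf1 complex. Integrator, which cleaves nascent RNA, had 5 of 11 bound (45.5%), led by its nuclease gene IntS11 (199), then IntS6 (162), IntS10 (123) and IntS9 (85.1). Of the genes named here, the summits at MED30, Nelf-A, Ctr9 and IntS6 were nearer to another gene's start. The share bound over all protein-coding genes was 18.2%. The difference between these lists and the subunit genes was not tested. TfIIS is in both the general factor and the elongation list.

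**Figure D4:**
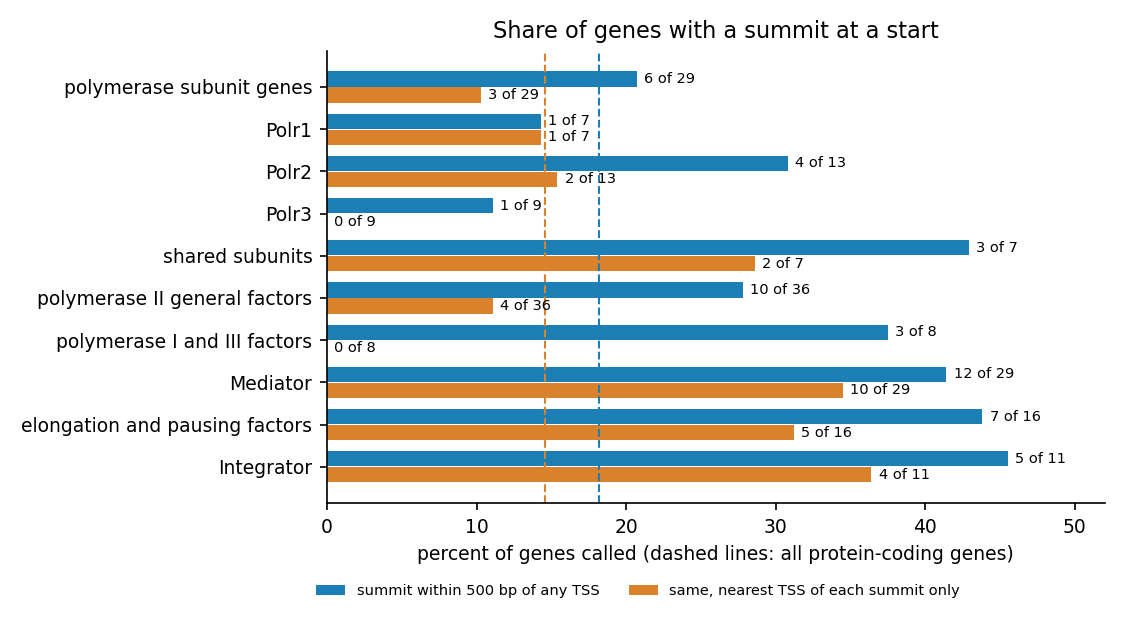
Percent of genes bound (horizontal axis) in the subunit genes, their groups and 5 lists of other transcription genes, with the counts printed; blue bars use any TSS within 500 bp of a summit, orange bars only the nearest TSS of each summit. Dashed lines are the shares over all protein-coding genes, 18.2% and 14.6%, and the subunit genes go from 6 of 29 to 3 of 29 between the rules.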

How the data were processed

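Peaks of both replicates were deposited by the authors on dm6, as ranked regions and as lists past an IDR threshold, per the file listings that accompany the samples. No control data were read for the counts made here. The aligner and peak caller behind the lists were not given in the sources used here. As deposited by the authors, signal is the peak caller's own strength of each peak, of unstated scaling. Their score is the IDR rescaled to whole numbers: the global IDR, deposited by the authors as its negative log10 (−log10 p in form), was turned to −log2 and scaled, with a ceiling of 1000, and matched the score within 1 in 100.0% of the ranked regions. Chromatin was sheared to 200 to 800 bp, per the labels, which limits how finely a summit can be placed.

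Summits were moved to count from 1 and assigned to TSSs of Ensembl release 115 (BDGP6.54, the dm6 assembly). For a bound gene the highest summit within 500 bp was taken, and for a replicate the strongest ranked region that overlaps that peak by at least 1 bp. Some regions hold several summits that share a score, so a summit of low signal can pass. Motif shares were counted in 101 bp around summits or canonical TSSs. No test was made, since there is 1 group and genes are not replicates. The assignment was tested on simulated data: no planted summit was lost. Python 3.11.15, numpy 2.4.6, pandas 2.3.3 and matplotlib 3.10.9 were used. The members, lists and words were chosen with earlier results of these data known. Of the 30 genes with such symbols, 1 is not reported here. The others are all named, with up to 4 of the strongest bound genes of each other list. Of the symbols listed for elongation factors, 5 matched no gene name in the annotation, and some of those factors are in the list under another symbol, such as TH1 and spt4.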

Additional observations from a re-analysis of the deposited data

How the results depend on the processing

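No paired analysis was possible because there is 1 group. The count of bound subunit genes was 6 and stayed within 1.5 times of that under the alternatives tried, except with the nearest TSS alone (3). Under that rule the genes with a Polr2 symbol gave 2 and those with a Polr3 symbol 0. The general factors of polymerase II gave 4, and the factors of polymerases I and III 0. The count by Polr3 symbol, 1, became 2 with ranked regions of a score of 540 or more. It became 0 with a window of 200 bp or where the peak had to cover a TSS. The factors of polymerases I and III gave 5 with a window of 1000 bp and 1 where the peak had to cover a TSS. In the stronger 50% of peaks Mediator gave 7, elongation factors 4 (also 4 in the conservative list), Integrator 3 and all genes 11.5%. Leaving out a replicate gave 6 and 6 subunit genes (1 and 1 with a Polr3 symbol) and 4 to 8 general factors. It gave 2 and 2 factors of polymerases I and III, 7 and 7 Mediator genes, and 3 to 5 elongation factors. Integrator then gave 3 to 4 genes, and all genes 10.7% to 13.0%. Bound subunit genes with TATAAA went from 2 to 4 with 100 bp on each side of the summit, and the other 5 words stayed at 0. The cause of these shifts was not tested. Signals were the same in the conservative list, and those of the replicates when summits had to lie within 100 bp. Unknown depth limits how weak a peak could be found. Whether a gene without a summit was free of the protein or below detection cannot be told apart here.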
